A study of Mus musculus with 6 samples.

Results

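The 9 complement genes C1qa, C1qb, C1qc, C1ra, C1s1, C2, C3, C4b and Cfb were followed in inguinal adipose tissue (iAT), the subcutaneous fat depot of the mouse groin. They were chosen by gene symbol, all 9 were found, and they make up 9 of the 19831 genes of the deposited table. Total RNA of whole iAT was sequenced at postnatal day 6 in 2 genotypes, wild-type and Npffr1-KO (ablated for neuropeptide FF receptor 1), with 3 samples each, all from animals kept under specific-pathogen-free conditions. The labels do not say which strain or sex was used, how the gene was targeted, or whether animals were pooled. The comparison asks which transcripts differ in young fat when this receptor is ablated.

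Complement is a set of plasma and surface proteins that tags particles for uptake and can form pores in membranes. In the classical pathway C1q recognizes antibody or damaged cells and activates the proteases C1r and C1s, which cut C4 and C2 to make an enzyme that cleaves C3. In the alternative pathway factor B binds cleaved C3, factor D (adipsin, Cfd) cuts factor B, and the resulting enzyme cleaves more C3. The liver makes most circulating complement, tissue macrophages are a main source of C1q, and adipocytes are known for making adipsin.

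The deposited table holds 1 value per gene and genotype, a read count normalized for library size, and not a value for each sample. The ratio of the 2 values is drawn toward 0 where reads are few. All 9 complement genes were too abundant for their reads per library to be worked out, so their values below have no replicate error and no test, and a difference between genotypes is described without a call. The values came from 23137343 normalized counts for wild-type and 23640005 for Npffr1-KO over all genes, and the 9 genes took 0.150% and 0.149% of them. A ratio of at least 1.5-fold between the genotypes was reached by 2.78% of the 15309 genes whose mean was 10 or more in the direction of Npffr1-KO, and by 3.12% in the direction of wild-type. None of the 9 genes reached it in either direction. C2 was the least abundant of the 9. Of the 5243 genes with at least its mean, 70 reached 1.5-fold higher in Npffr1-KO and 37 lower. These are smaller shares, and none among 9 genes says little beside them. Npffr1 itself had 1, 0 and 5 reads in the 3 libraries of wild-type iAT against 0 in every library of Npffr1-KO iAT, too few to check the genotype labels firmly.

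Reads per library were worked out from the deposited means of the less abundant genes. For such a gene, 1 set of 6 whole numbers divided by the library size factors gives the printed mean to its 15 digits, and the size factors themselves (0.916 to 1.04) come from genes with a single read. Libraries could be placed in a genotype in this way but not tied to a sample number. Reads were found for 3030 of 3090 genes with a mean of 10 to 100 (98.1%). Of these 3030, limma called 0.132% higher and 0.132% lower in Npffr1-KO at an adjusted p under 0.05, and the genotypes did not overlap in 6.77% (all Npffr1-KO libraries higher) and 11.5% (all lower). The smallest two-sided p an exact permutation test can give with 3 against 3 libraries is 0.10.

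The promoters of C1qb, C1qc and C3 are shown because they belong to genes of high level and hold short motifs of factors known in myeloid cells and fat. RefSeq promoter sequences (build GRCm38.p6) were matched for 5 of the 9 genes, with 6 promoters, and the 250 bases before each start were searched on both strands. Capitals mark the PU.1 core GAGGAA, or its reverse complement, in C1qb and C1qc, and the C/EBP motif TTGCNNAA in C3. PU.1 is a factor of macrophages and B cells, and C/EBP factors act in adipocytes, liver and myeloid cells.
C1qb, chr4:136886201-136886450, minus strand: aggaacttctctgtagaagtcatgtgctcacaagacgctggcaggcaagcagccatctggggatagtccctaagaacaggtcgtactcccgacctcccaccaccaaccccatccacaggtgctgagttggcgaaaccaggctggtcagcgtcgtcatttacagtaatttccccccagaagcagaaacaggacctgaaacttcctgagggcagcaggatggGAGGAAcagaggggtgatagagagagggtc
C1qc, chr4:136892915-136893164, minus strand: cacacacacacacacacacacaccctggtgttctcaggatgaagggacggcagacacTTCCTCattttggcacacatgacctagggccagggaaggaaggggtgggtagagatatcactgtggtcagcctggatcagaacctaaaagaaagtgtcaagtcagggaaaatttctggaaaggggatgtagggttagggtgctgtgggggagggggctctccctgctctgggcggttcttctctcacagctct
C3, chr17:57228137-57228386, minus strand: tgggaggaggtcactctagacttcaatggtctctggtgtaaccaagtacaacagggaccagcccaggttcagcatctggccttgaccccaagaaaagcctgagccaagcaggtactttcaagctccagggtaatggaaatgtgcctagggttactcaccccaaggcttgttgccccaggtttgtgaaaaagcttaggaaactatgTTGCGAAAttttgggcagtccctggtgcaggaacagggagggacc

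The PU.1 core lay 30 to 25 bases before the start of C1qb, on the strand of the gene, and 193 to 188 bases before that of C1qc, on the opposite strand. The C/EBP motif lay 45 to 38 bases before the start of C3, and 1 promoter of C1s1 held it 242 to 235 bases upstream on the opposite strand. Of all 32851 promoters of the same length, 23.3% held the PU.1 core and 9.56% the C/EBP motif. The gamma interferon activation site TTCNNNGAA, held by 7.02% of promoters, had no match in the windows of these genes. A match of these letters is a description of the sequence and no evidence of binding.

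C1q, the recognition unit of the classical pathway, is built from the chains encoded by C1qa, C1qb and C1qc. C1qa (Entrez Gene 12259) had 2871 normalized counts in wild-type against 3389 in Npffr1-KO iAT. C1qb (12260) had 2096 and 2437 normalized counts. C1qc (12262) had 2222 and 2625 normalized counts. All 3 values were thus higher in Npffr1-KO, with log2 ratios of 0.24, 0.22 and 0.24. C1qa and C1qc differed from C1qb by 0.022 and 0.023 in log2 ratio, a spread that has no replicate error of its own.

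Per kilobase of gene, the C1q chains were among the highest of the 9 genes. C1qa was first in both genotypes, with 2653 normalized counts per kilobase in wild-type and 3132 in Npffr1-KO, and C1qc was second, with 2090 and 2470. C1qb had 1974 and 2295 per kilobase. The level of C1qa was 1.34 times that of C1qb in wild-type and 1.36 times in Npffr1-KO, and C1qc was 1.06 and 1.08 times C1qb. The chains therefore stood in nearly the same proportion to one another in the 2 genotypes.

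**Figure D1:**
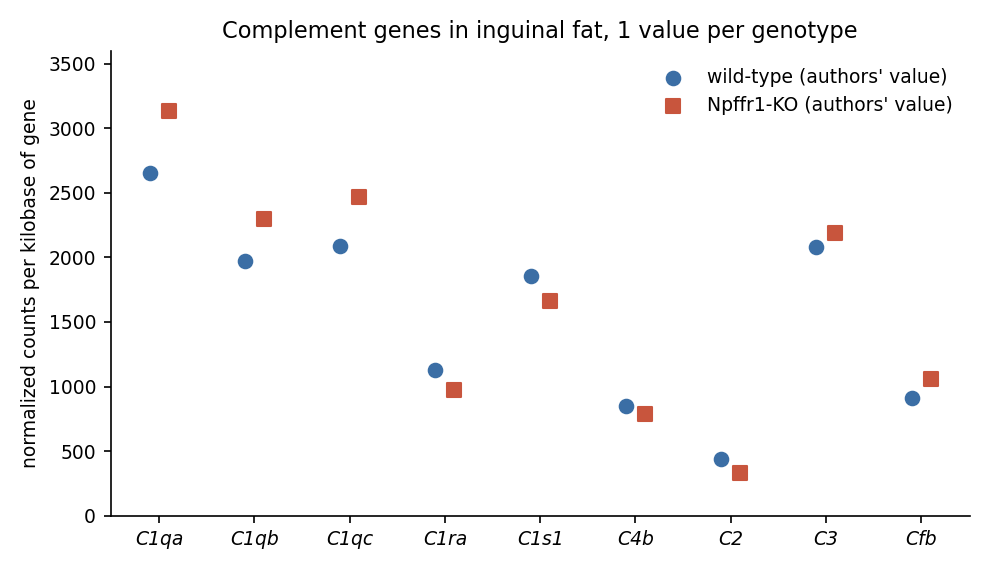
Level of each complement gene per kilobase of gene (vertical axis, normalized counts per kilobase), as 1 value per genotype given by the authors, for wild-type (circles) and Npffr1-KO (squares); there are no error bars because the table holds no value per sample. C1qa is the highest (2653 and 3132) and C2 the lowest (436 and 329), and Cfb and the 3 C1q chains are higher in Npffr1-KO while C1ra, C1s1, C4b and C2 are lower.

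The higher C1q values went along with the length of the genes. In these data short genes tended to be higher in Npffr1-KO and long genes lower: the median log2 ratio was 0.27 in the shortest of 20 length classes and -0.14 in the longest. The C1q genes are short by the listed length, with 1082, 1062 and 1063 bases. Their length class (837 to 1118 bases, 766 genes) had a median log2 ratio of 0.21. Relative to that median, C1qa was at 0.03, C1qb at 0.01 and C1qc at 0.03. The cause of this trend was not tested.

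**Figure D2:**
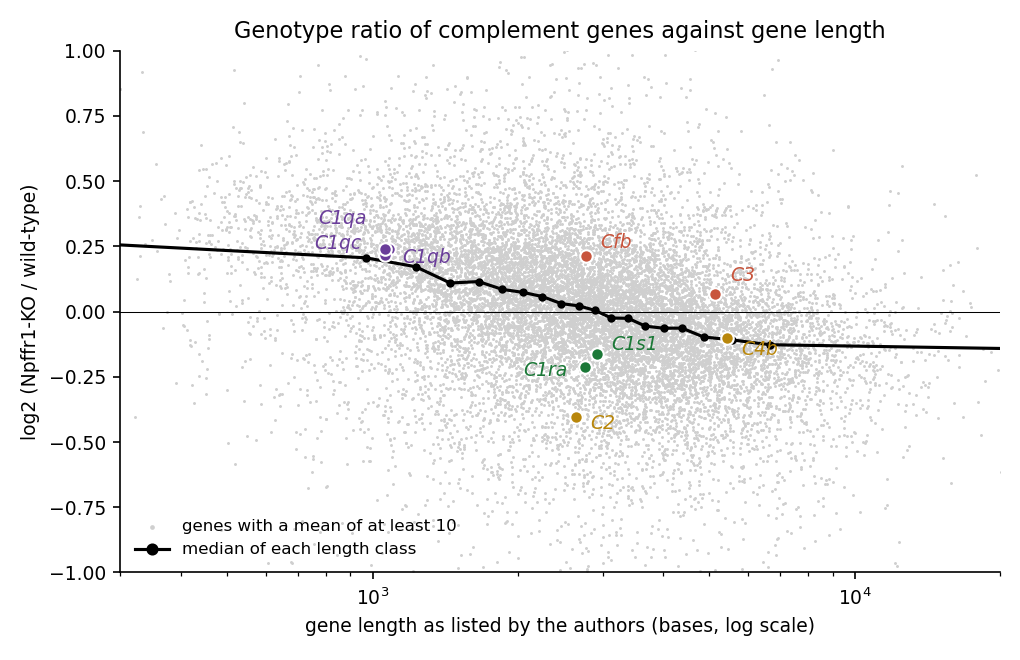
Log2 ratio of Npffr1-KO over wild-type (vertical axis, genes beyond -1 or 1 not shown) against gene length in bases (log scale). Grey points are the 15309 genes compared, the line joins the medians of 20 length classes, and the 9 complement genes are named; the C1q chains lie on the median line of genes of their length, Cfb and C3 above it, and C1ra, C1s1 and C2 below it.

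Macrophage markers had ratios on both sides of 0. Of 16 macrophage genes fixed as a list, 10 had higher values in Npffr1-KO and 6 lower, with a median log2 ratio of 0.20 and of 0.07 relative to genes of like length, and none reached 1.5-fold. Their summed level was 25123 normalized counts in wild-type against 28967 in Npffr1-KO. Lyz2, the macrophage lysozyme, had 9262 and 11951 normalized counts, Csf1r, the receptor for colony stimulating factor 1, had 4594 and 4379, and Ctss, a lysosomal protease, had 2226 and 2846. Cd163, a scavenger receptor, and Mertk, a receptor for the uptake of dying cells, were the lowest of the list, with log2 ratios of -0.45 and -0.44. Trem2, a lipid-sensing receptor with the highest ratio of the list (0.52), was low enough to be read per library, with 39, 56 and 46 reads in wild-type and 71, 67 and 63 in Npffr1-KO. Its groups did not overlap, but the limma difference of 0.57 (SE 0.27) had an adjusted p of 0.364. The part of macrophage number in the C1q values was not tested, and in bulk tissue fewer or more cells of a type cannot be told apart from less or more RNA per cell.

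C1r and C1s are the paired proteases that C1q switches on. C1ra (50909) had 3120 normalized counts in wild-type against 2689 in Npffr1-KO. C1s1 (50908) had 5421 and 4842 normalized counts. Both values were lower in Npffr1-KO, with log2 ratios of -0.21 and -0.16, and they stayed there relative to genes of like length, at -0.24 and -0.17. C1s1 was 1.64 times the level of C1ra per kilobase in wild-type and 1.70 times in Npffr1-KO. The proteases and the C1q chains thus had opposite signs, and C1qa per kilobase was 2.35 times C1ra in wild-type and 3.22 times in Npffr1-KO; of this difference of 0.45 on the log2 scale, 0.27 was left relative to genes of like length.

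Each protease has a near-identical copy in the mouse, and both copies were listed. C1rb had 19 reads over the wild-type libraries and 15 over the Npffr1-KO libraries. C1s2 had 30, 41 and 36 reads in wild-type and 17, 34 and 14 in Npffr1-KO, with 1 Npffr1-KO library inside the wild-type range. In the GENCODE transcripts 56.9% of the 31-base sequences of C1ra also occur in C1rb, and 33.5% of those of C1s1 in C1s2, so the split of reads between copies is uncertain. Summing each gene with its copy moved its log2 ratio by at most 0.0020. C1s1 also overlaps an antisense gene, Gm16567, and the strand setting used in counting is not named in the sources used.

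Fibroblast and adipocyte progenitor markers, which belong to cells known to make C1r, C1s and C3, were mostly lower in Npffr1-KO, as were both proteases, whereas C3 had a log2 ratio of 0.07. Of 12 such genes 10 had lower values in Npffr1-KO, with a median log2 ratio of -0.19, and their summed level was 637070 normalized counts in wild-type against 516610 in Npffr1-KO. Most of this sum came from 2 fibrillar collagen chains. Col1a1 had 297040 and 231620 normalized counts, and Col3a1 had 254950 and 209710. Thy1, a surface protein of fibroblasts and T cells, was the exception past 1.5-fold, with 3533 and 5377. The part of these cells in the protease values was not tested.

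C4 and C2 supply the fragments of the classical enzyme that cleaves C3. C2 (12263) had 1152 normalized counts in wild-type against 871 in Npffr1-KO, the lowest level of the 9 genes and the largest ratio among them, at -0.40 on the log2 scale or -24.4%. A larger ratio in either direction was found for 15.3% of the 15309 genes compared. Only 5243 of these were as abundant as C2 or more so, and its rank among those was not worked out. C4b (12268), the mouse C4 gene, had 4597 and 4286 normalized counts, a log2 ratio of -0.10. Relative to genes of like length, C2 was at -0.43 and C4b at 0.01, so that the sign of C4b depended on this choice. C4b was 1.94 times the level of C2 per kilobase in wild-type and 2.40 times in Npffr1-KO.

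C4a, the copy of C4b known as sex-limited protein, had 31, 23 and 18 reads in wild-type and 15, 19 and 8 in Npffr1-KO, with overlapping groups and a limma difference of -0.73 (SE 0.41, adjusted p = 0.470), which was -0.44 without the Npffr1-KO library of 8 reads. C4b was 204 times C4a per kilobase in wild-type and 278 times in Npffr1-KO. Of the 31-base sequences of C4b, 48.3% also occur in C4a, and 43.3% of those of C4a occur in C4b. The split of reads between these copies is therefore uncertain. Summing the copies moved the log2 ratio of C4b by 0.0019.

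C3 is the protein on which the pathways meet. C3 (12266) had the highest count of the 9 genes, 10704 normalized counts in wild-type against 11231 in Npffr1-KO, a wild-type value at the percentile 98.7 of all listed genes. Its log2 ratio was 0.07, and 78.4% of the 15309 genes compared had a larger one in either direction. Per kilobase, C3 had 2083 normalized counts in wild-type against 2185 in Npffr1-KO, next to the C1q chains. Relative to genes of like length its log2 ratio was 0.17. C3 was 2.46 times the level of C4b per kilobase in wild-type and 2.77 times in Npffr1-KO.

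Factor B is the alternative-pathway partner of C3 and the paralogue of C2. Cfb (14962) had 2529 normalized counts in wild-type against 2933 in Npffr1-KO, a log2 ratio of 0.21 and of 0.19 relative to genes of like length. Cfb and C2 are close neighbours and nearly equal in listed length, with 2766 and 2644 bases, yet had opposite signs. Cfb was 2.10 times the level of C2 per kilobase in wild-type and 3.22 times in Npffr1-KO, a difference of 0.62 on the log2 scale, the largest among the pairs of these 9 genes that were set side by side. A readthrough gene, Gm20547, that is not listed in the table holds 75.5% of the 31-base sequences of Cfb and 40.2% of those of C2, so reads at this locus may have been divided in the counting.

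**Figure D3:**
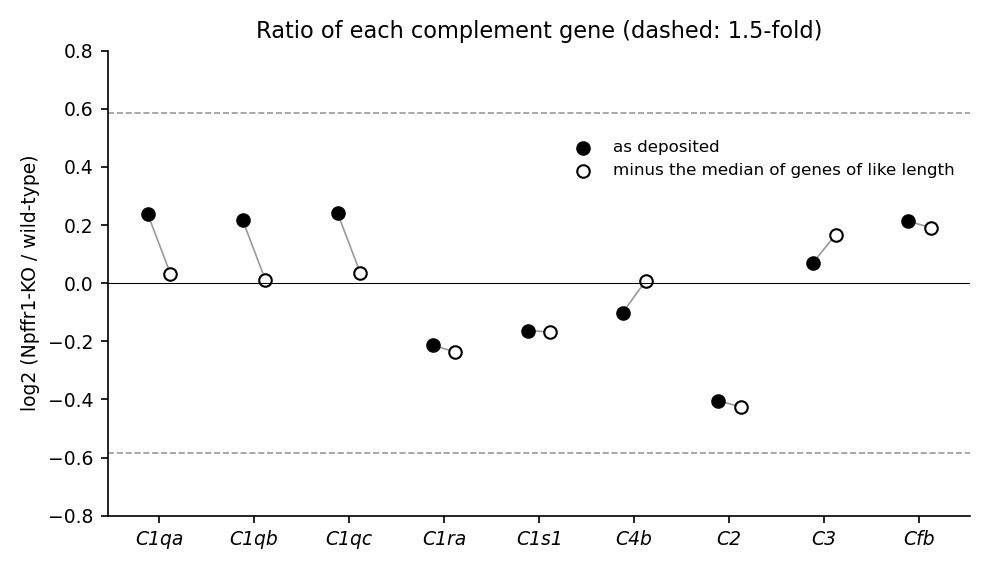
Log2 ratio of Npffr1-KO over wild-type for the 9 complement genes (vertical axis), as deposited (filled) and after subtracting the median of genes of like length (open); dashed lines mark 1.5-fold. All values lie between the dashed lines; the C1q chains fall from 0.22 to 0.24 to near 0, C2 stays lowest at -0.40 and -0.43, and C4b crosses 0.

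Across the 9 genes, 5 ratios were above 0 and 4 below, with a median log2 ratio of 0.07, or 0.01 relative to genes of like length, beside 0.01 over all 15309 genes compared. The order by level per kilobase was C1qa, C1qc, C3, C1qb, C1s1, C1ra, Cfb, C4b and C2 in wild-type. In Npffr1-KO C1qb passed C3 and Cfb passed C1ra. With 1 value per genotype, no neighbours in this order can be said to differ beyond their spread.

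The genes lie in 4 places. C1qa, C1qb and C1qc are contiguous on chromosome 4, and C1ra and C1s1 are adjacent on chromosome 6. C2, Cfb and C4b lie on chromosome 17 with 6 genes between them, C3 being elsewhere on chromosome 17. This order holds only listed RefSeq genes (GRCm38.p6) with a mean of at least 10. The 20 nearest such genes around the C1q chains had a median log2 ratio of -0.04 and none reached 1.5-fold. Around C1ra and C1s1 the median of 20 neighbours was 0.15, with 2 past 1.5-fold higher in Npffr1-KO, while both proteases were lower. Around C2, Cfb and C4b it was 0.09 over 26 genes, with 2 past 1.5-fold lower, and around C3 it was 0.07 over 20 genes.

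A wider list of 51 other complement genes was described beside the 9, of which 48 were listed in the table and 36 had a mean of at least 10. Of these 36, 17 had ratios above 0 and 19 below, with a median log2 ratio of -0.09, or -0.10 relative to genes of like length. Cpn2, Cr2 and Hc were past 1.5-fold higher in Npffr1-KO and Masp1 and Cd46 past 1.5-fold lower. These counts of 3 and 2 of 36 stand beside the 2.78% and 3.12% of all genes given above, and as the list was compiled with earlier results of these data known they are descriptions.

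**Figure D4:**
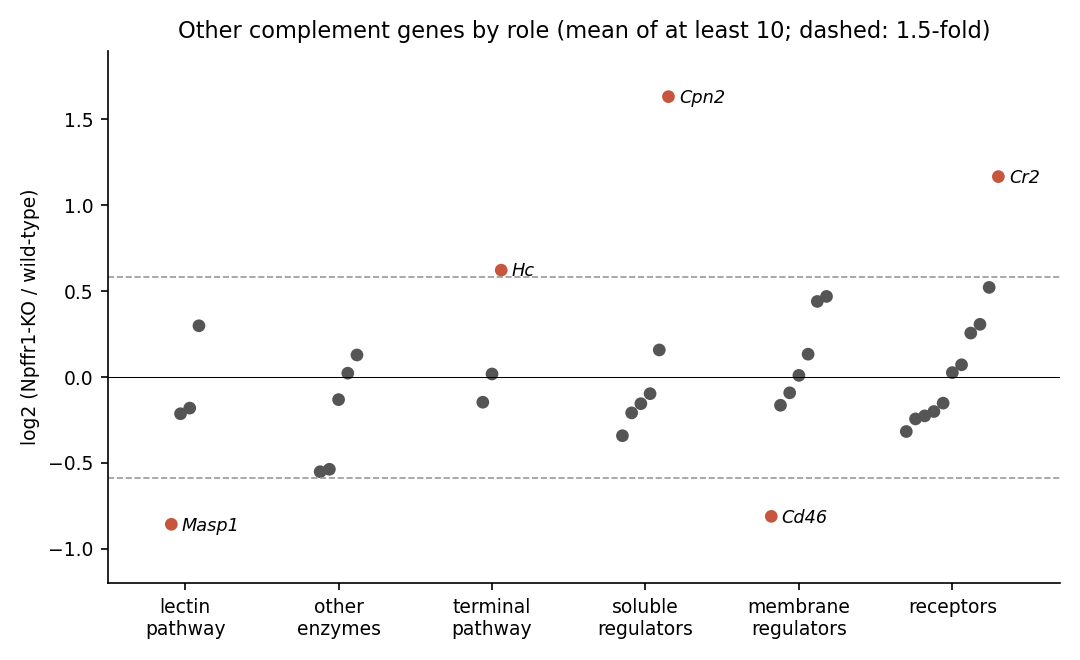
Log2 ratio of Npffr1-KO over wild-type (vertical axis) for the 36 other complement genes with a mean of at least 10, 1 point per gene, by role; dashed lines mark 1.5-fold and genes beyond it are named. Most points lie between the lines in each role, with Cpn2 (1.63) and Cr2 (1.17) above and Masp1 (-0.86) and Cd46 (-0.81) below.

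Among the other enzymes, adipsin was by far the most abundant. Cfd, the protease that cuts factor B, had 92905 normalized counts in wild-type against 84824 in Npffr1-KO, a log2 ratio of -0.13. Relative to genes of like length its log2 ratio was -0.34. Cfd was 110 times the level of Cfb per kilobase in wild-type and 86.5 times in Npffr1-KO. Cfp, properdin, which stabilizes the alternative-pathway enzyme, had 1409 and 1540 normalized counts, and C1rl, a C1r-like protease, had 272 and 276. Markers of adipocytes, the cells known for adipsin, had ratios above 0 for 7 of 8 genes, with a median of 0.15. Relative to genes of like length, 6 of the 8 were above 0, with a median of 0.06. Adipoq was the gene below 0 as deposited, with 37027 and 35360 normalized counts.

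In the lectin pathway, which is started by sugar-binding proteins in place of C1q, 7 of 9 genes were listed and 4 had a mean of at least 10. Masp1, a protease that lectins activate, had 55, 38 and 39 reads in wild-type and 5, 33 and 18 in Npffr1-KO. The groups did not overlap, and the mean of normalized reads was 43.0 ± 8.79 (SD, n = 3) against 19.3 ± 14.2. The limma difference was -1.44 (SE 0.50) with an adjusted p of 0.209, and without the Npffr1-KO library of 5 reads it was -0.71. Colec12, a scavenger receptor with a collectin domain, had 1301 and 1148 normalized counts, Fcna, ficolin A of macrophages, had 360 and 443, and Colec11, a soluble collectin, had 129 and 111.

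Of the complement genes outside the 9, with the structural relatives of C1q described last, 13 were in the limma fit. None had an adjusted p under 0.05 by limma. An unadjusted limma p under 0.05 was reached by 3 (Masp1, Cd46 and C1ql3), beside 400 of all 3030 genes fitted. The genotypes did not overlap in 2 of the 13, both lower in Npffr1-KO. These 2 were Masp1 and Cd46, beside the 11.5% of fitted genes that did so.

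**Figure D5:**
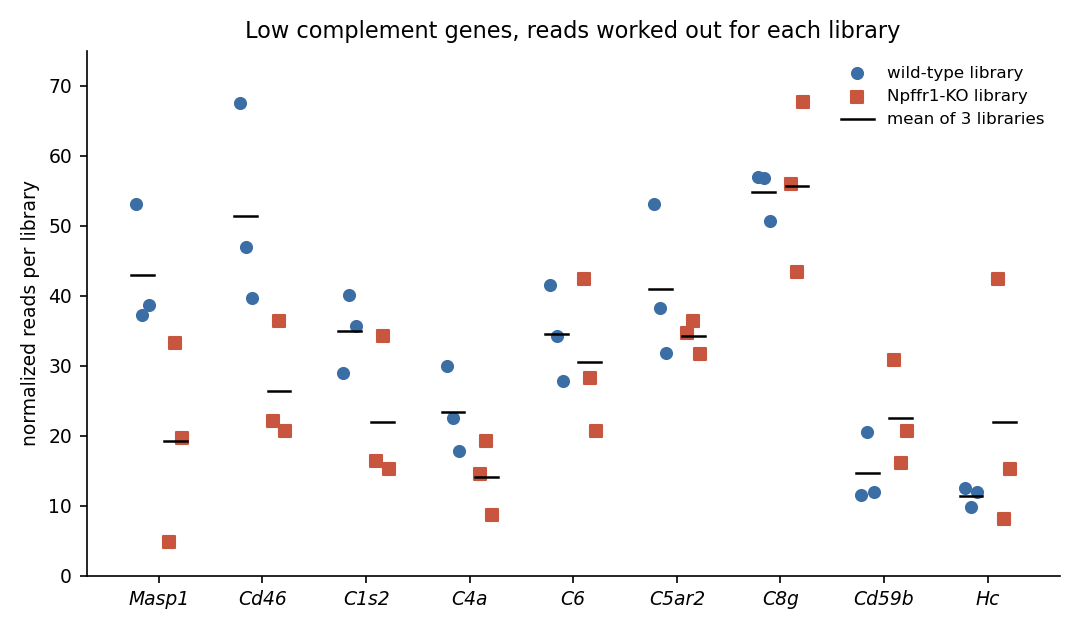
Normalized reads in each library (vertical axis) for 9 complement genes of low level, with wild-type libraries as circles, Npffr1-KO libraries as squares and the mean of 3 libraries as a line. The genotypes are apart for Masp1 and Cd46 and overlap for the other 7 genes; the higher Npffr1-KO mean of Hc comes from 1 library.

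Membrane regulators protect a cell from complement on its surface. Cd46, which helps to degrade cleaved C3 and in the mouse is known mainly from sperm, had 70, 48 and 40 reads in wild-type and 23, 36 and 19 in Npffr1-KO. Its groups did not overlap, with a limma difference of -0.94 (SE 0.34) and an adjusted p of 0.228. In the GENCODE transcripts 13.8% of its 31-base sequences occur in an overlapping gene on the opposite strand. Cd59a, which blocks the pore, had 1557 and 2112 normalized counts, Cr1l, known as Crry, had 1563 and 1574, and Cd55, which takes apart the C3-cleaving enzymes, had 1219 and 1337. Susd4 had 114 and 107 normalized counts.

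Of 10 soluble regulators, all listed, 6 had a mean of at least 10. Clu, clusterin, had 7917 and 8833 normalized counts, and Serping1, the inhibitor of C1r and C1s, had 6850 and 5406. The log2 ratio of Serping1, -0.34 (-0.43 relative to genes of like length), had the same sign as those of the proteases it blocks. Of the 15309 genes compared, 7474 were below 0, and a link between Serping1 and the proteases was not tested. Vtn, vitronectin, had 1231 and 1066 normalized counts. Cpn2, the non-catalytic subunit of carboxypeptidase N, had 39.4 and 122 normalized counts, a log2 ratio of 1.63, but its reads per library were not resolved and so its error is unknown. Its catalytic partner Cpn1 had 3 reads over the wild-type libraries and 4 over the Npffr1-KO libraries.

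The terminal pathway, which forms the pore, was at low levels. Of 7 genes 6 were listed and 3 had a mean of at least 10. C8g had 59, 58 and 51 reads in wild-type and 58, 43 and 62 in Npffr1-KO, with a limma difference of 0.00 (SE 0.27). C6 had 43, 35 and 28 reads in wild-type and 44, 28 and 19 in Npffr1-KO. Hc, which encodes C5, had 13, 10 and 12 reads in wild-type and 44, 8 and 14 in Npffr1-KO, so that its ratio past 1.5-fold rested on 1 library, and without that library the limma difference was -0.024. C9, the chain that polymerizes into the pore, had 3, 5 and 0 reads in wild-type and 0 in each Npffr1-KO library. C7 had 2, 0 and 1 reads in wild-type and 0 in each Npffr1-KO library. C8a had 0, 2 and 1 reads in wild-type and 6, 2 and 1 in Npffr1-KO. The groups overlapped for each of these genes. Hepatocyte markers bear on these liver genes: Alb had 414 and 424 normalized counts, and Ttr was near 0, with 2 reads and 0. Of the other markers, skeletal muscle genes summed to 333 and 662 normalized counts, and neutrophil genes to 359 and 298.

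Of 12 receptors, 11 had a mean of at least 10. Calr, calreticulin, which binds the C1q collagen tail, had 13463 and 16079 normalized counts, Cd93 had 12664 and 10696, and Lrp1, a scavenging receptor, had 11380 and 10244. C1qbp, named for its binding of the C1q globular heads, had 1652 and 2044. Cr2, which B cells use to bind cleaved C3, had 129 and 290 normalized counts, a log2 ratio of 1.17, with no error as its reads were not resolved. Among B cell markers, Cd79a had a log2 ratio of 0.33 and Cd79b of 0.27, and T cell markers had a median of 0.64; the part of lymphoid cells in the Cr2 value was not tested. Itgb2, the common chain of the integrin receptors for cleaved C3, had 1389 and 1995 normalized counts, but its partner chains Itgam, with 466 and 405, and Itgax, with 438 and 446, did not share its ratio of 0.52. The receptor for the C3a peptide, C3ar1, had 351 and 369 normalized counts, and that for C5a, C5ar1, had 314 and 252.

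The C1q fold also occurs in hormones and matrix proteins. Of 16 such relatives 15 were listed, 13 had a mean of at least 10, and 11 of these 13 had lower values in Npffr1-KO, with a median log2 ratio of -0.16, or -0.24 relative to genes of like length. The C1q chains themselves had ratios above 0 beside them. The listed relatives with a mean under 10, Cbln1 and C1ql1, had few reads, with more in Npffr1-KO. Cbln1 had 0, 1 and 4 reads in wild-type and 9, 9 and 8 in Npffr1-KO. C1ql1 had 1, 3 and 0 reads in wild-type and 6, 7 and 4 in Npffr1-KO. Adipoq, adiponectin, was the most abundant, as given above. C1qtnf1 had 3509 and 2683 normalized counts, C1qtnf6 had 3116 and 3044, and Mmrn2, of the endothelial matrix, had 2763 and 2357. C1ql3 was past 1.5-fold lower, with 58, 104 and 87 reads in wild-type and 77, 33 and 38 in Npffr1-KO, overlapping groups, and a limma difference of -0.74 (SE 0.32, adjusted p = 0.332). Markers of endothelial cells, which are known to make Mmrn2, had ratios below 0 for 4 of 5 genes, with a median of -0.37.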

How the data were processed

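Total RNA of iAT at postnatal day 6 was sequenced from 3 wild-type and 3 Npffr1-KO samples, grouped by the genotype label. The submitters' processing notes name Bowtie2, RSEM and DESeq2; no version, genome build or annotation is named there. The deposited signal values are counts of reads per gene, divided by the authors by library size factors and reported once per genotype. Their ratio is drawn toward 0 for genes with few reads, so Masp1 is listed at 40.1 and 22.1 while its reads average 43.0 and 19.3. Gene length, also deposited, was used for levels per kilobase. C3 is listed at 5139 bases, and its GENCODE transcripts hold 5160 different sequences of 31 bases. The listed length was therefore read as that of the transcript, not as the span of the gene on the chromosome. The authors' fold changes, p-values and adjusted p-values, and their shorter table of filtered genes, were not used.

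Log2 ratios were taken for genes with a mean of at least 10, and a median over 20 length classes was subtracted as an alternative. For genes with a mean of up to 100, whole reads per library were searched from the mean over both columns, with at most 0.01 accidental matches expected. These reads are counts as assigned to genes in the authors' processing. For near-identical copies they therefore depend on how shared reads were assigned. The log2 of normalized reads plus 1 was tested with limma 3.58.1 (trend, R 4.3.3) over all 3030 genes solved, with Benjamini-Hochberg adjustment, and 2-sided exact permutation tests of 3 against 3 were run for single genes. Both steps were tested on simulated data: all 1458 of 1458 solved genes were right, and limma found 82% of 200 genes changed by 1.5 on the log2 scale, with 16 false calls. The reads simulated for limma had the same dispersion for every gene and no smaller change. The 82% therefore does not measure the power for the differences described here. Replicates are not stated to be separate animals, so p-values measure the spread between these samples. The 9 genes and all lists were chosen with earlier results of these data known. The text names every member, the 4 most abundant genes of each wider list and those past 1.5-fold, the 3 most abundant of a marker list at most, and further genes (near-identical copies, partners, integrin chains, C3a and C5a receptors, low genes with reads per library, Thy1, Trem2, Cd163, Mertk, Ttr) picked after their values were seen. A few genes that this rule would name are not reported here.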

Additional observations from a re-analysis of the deposited data

How the results depend on the processing

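The log2 ratios of the 9 genes kept their sign under equal sums of the genotypes, centring on the median gene and added pseudocounts (1, 10), and shifted by at most 0.031. Centring on genes of like length kept 8 of 9 signs, shifted ratios by up to 0.206, and turned C4b from -0.10 to 0.01. A looser fold threshold gave 1 lower gene, C2, in place of 0. A minimum mean of 100 left 1 wider-list gene higher and 0 lower, in place of 3 and 2, and 1.61% of all genes lower in place of 3.12%. In the order by level per kilobase, 4 genes changed rank with the Npffr1-KO value, and 8 without division by length. Limma called 8 of all genes, 5 with a pseudocount of 0.5, 5 with limma-voom, and 2 to 28 when each library was left out (28 without 1 Npffr1-KO library, E); no complement gene was called under these alternatives. With 1 library left out, 5 of the limma differences reported crossed 0, ranging from -0.86 to 0.048 for C1ql2, -0.024 to 1.10 for Hc, -0.76 to 0.11 for C1qtnf4, -0.48 to 0.023 for C6 and -0.15 to 0.17 for C8g; limma-voom gave -0.0044 for C8g. The cause was not tested. Summing near-identical copies was added after seeing the data. No paired analysis was possible because the libraries could not be tied to replicate numbers. With 1 value per genotype, no error can be set beside the 9 genes.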
